A study of Drosophila melanogaster with 18 samples.

Results

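The DNA damage checkpoint of the developing fly wing was read from 10 genes: the kinase genes tefu and mei-41, the effector kinase genes lok and grp, the transcription factor gene p53, the break sensor genes nbs, rad50 and mre11, and the checkpoint clamp genes Hus1-like and Rad9. The genes are a list of names, and all 10 were found among the 17559 FlyBase gene IDs of both count tables. All 10 passed the filter on low counts in every comparison. RNA was taken from wing imaginal discs, the larval tissue that forms the adult wing, of wandering L3 Drosophila melanogaster larvae. Discs expressed wild type Tip60 (Tip60wt) or a dominant negative Tip60 (Tip60dn), or belonged to a control arm that the labels do not describe further, for 48 h or 78 h, with 3 libraries in each of the 6 groups. All larvae, controls included, had been heat-shocked at 37 °C for 30 min to induce overlapping clones, kept at 18 °C to hold the transgenes silent, and moved to 28 °C for 48 h or 78 h before dissection. The labels name neither the driver nor the control transgene, and each library pooled 40 discs. A value is therefore an average over cells within and outside clones, and fewer cells of a type cannot be told apart from less RNA per cell.

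The checkpoint works in steps. A broken DNA end is bound by the complex of the mre11, rad50 and nbs products, which recruits the kinase encoded by tefu, the fly ATM. Single-stranded DNA at stalled forks or resected ends recruits mei-41, the fly ATR, and a ring-shaped clamp built from Rad9, Hus1 and Rad1 subunits is loaded nearby. The kinases pass the signal to lok, the fly Chk2, and to grp, the fly Chk1, which hold back entry into mitosis, while p53, activated through lok in flies, turns on genes of apoptosis and repair. Tip60 is the lysine acetyltransferase of the NuA4 complex; in human cells it acetylates ATM, and the fly complex acetylates and exchanges the phosphorylated histone variant H2Av at damage sites.

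Libraries held 65277725 to 105716567 counts assigned to genes, and levels are given as CPM, counts scaled to 1000000 per library, with size factors set over all 18 libraries. Tip60 itself separated the control labels from the transgene labels: it stood at 33.9 ± 2.58 CPM (SD, n = 3) in controls at 48 h against 1634 ± 221 in Tip60wt and 3020 ± 465 in Tip60dn, and at 78 h at 39.0 ± 5.75, 1586 ± 529 and 2053 ± 381. Tip60 RNA was thus higher in Tip60dn than in Tip60wt at 48 h (adjusted p = 0.000662 by edgeR's quasi-likelihood test), and not shown to differ at 78 h (adjusted p = 0.223). Counts per gene do not tell wild type from dominant negative Tip60, so the Tip60wt and Tip60dn labels were not checked against each other. All 16 wing disc epithelium markers were present in every library, the lowest at 44.8 CPM. Markers of other cells were also present: the summed hemocyte list (14 genes) reached 2050 to 2330 CPM in Tip60dn at 48 h and 1920 to 2280 at 78 h, against 1430 to 1920 across the other groups. Of its crystal cell genes, lz never passed 0.279 CPM, while PPO2 ran from 13.9 to 170 CPM. The hemocyte sum is weighted towards Ppn, at 764 to 1240 CPM, while NimC1, He, srp, Sr-CI and eater never passed 32.9 CPM. The summed muscle and myoblast list was 1440 to 1560 CPM in Tip60dn and 1320 to 1450 elsewhere. The tracheal list was 929 to 982 against 776 to 933, and the neuronal list 130 to 151 against 142 to 180. The most abundant neuronal genes were sca (67.9 to 90.7 CPM) and elav (27.4 to 68.7 CPM). Of the 10 neuronal genes, 2 were called higher and 1 lower against Tip60wt at 48 h, and 4 and 1 at 78 h. Against control these counts were 3 and 1, and 4 and 1. Over all genes, 18.0% and 17.6% were called higher against Tip60wt, and 19.6% and 22.4% against control. The lower neuronal sum thus does not describe its list gene by gene. The part of these cells in the results below was not tested. Replicate 2 of Tip60wt at 48 h stood apart with a fat body sum of 3520 CPM, where the lowest library of its group had 495; without it the same number of checkpoint genes, 6, was called between Tip60dn and Tip60wt at 48 h. The labels do not say whether libraries of a group came from separate crosses, so p-values measure the spread between these libraries only.

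In the Ensembl annotation of the BDGP6 assembly, tefu (FBgn0045035) lay at 3R:15232212-15242236 on the minus strand, mei-41 (FBgn0004367) at X:16391698-16399850 on the plus strand and lok (FBgn0019686) at 2L:20061422-20064381 on the plus strand. The grp gene (FBgn0261278) lay at 2L:16680054-16699926 and mre11 (FBgn0020270) at 2L:11282090-11284335, both on the plus strand, and p53 (FBgn0039044) at 3R:23049657-23054082 on the minus strand. The nbs gene (FBgn0261530) lay at 3L:9720414-9723194 on the minus strand and rad50 (FBgn0034728) at 2R:22421013-22425482 on the plus strand. The clamp genes Hus1-like (FBgn0026417) at 3R:4808336-4812096 and Rad9 (FBgn0025807) at 3L:18870045-18872553 were both on the minus strand. Some exon stretches are shared with same-strand neighbours: 19.7% of the exon bases of Hus1-like lie in exons of ctrip and 7.31% of those of grp in exons of squ, so reads there cannot be assigned with certainty. Exons on the opposite strand cover 38.0% of p53, 14.7% of Rad9 and 9.75% of Hus1-like; libraries were directional, but the strand setting of the counting is not given in the sources used here.

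Per kilobase of exon, and averaged over all 18 libraries, grp was the most abundant checkpoint mRNA at 133 CPM per kb. It was followed by mre11 at 38.4, lok at 30.6, tefu at 25.8 and rad50 at 22.2. The nbs mRNA came next at 12.7, then Rad9 at 9.11, mei-41 at 7.80, p53 at 7.18 and Hus1-like at 5.78 CPM per kb. The ranges over all 18 libraries did not overlap between grp and mre11 or between rad50 and nbs; for all other neighbours in this order they overlapped. The genes also differed in how much they moved. The ratio of the highest to the lowest group mean CPM was 1.64 for Hus1-like and 1.44 for nbs, between 1.15 and 1.29 for grp, Rad9, mre11, tefu and lok, and no more than 1.12 for p53, rad50 and mei-41. Even the lowest count, 299 reads of Hus1-like, carries a counting error of 5.78%, so counting error is small beside most differences described here.

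**Figure D1:**
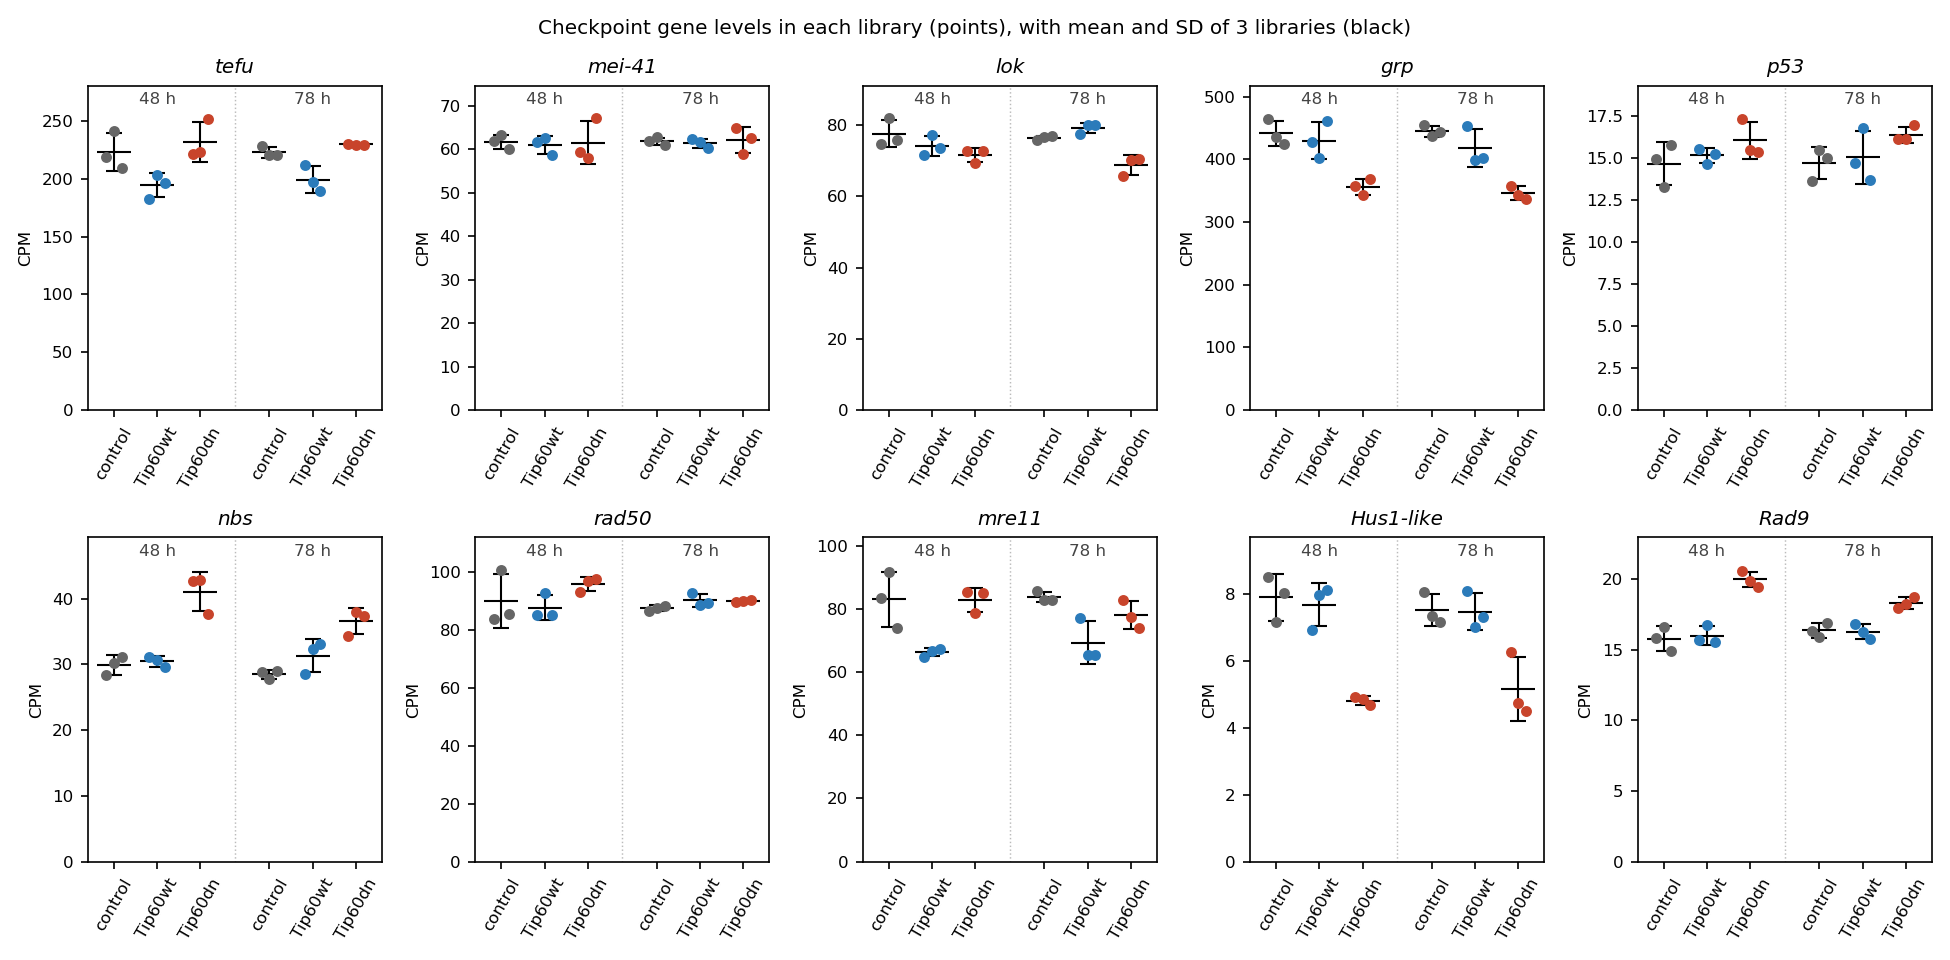
Levels of the 10 checkpoint genes in CPM (linear axes from 0) in each library, by genotype at 48 h and 78 h; points are libraries, black lines and bars the mean and SD of 3 libraries. Hus1-like and grp are low and nbs and Rad9 high in Tip60dn (red), mre11 and tefu are low in Tip60wt (blue), and mei-41 lies between 57.9 and 67.2 CPM throughout.

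The genes moved in different directions. With Tip60dn, nbs and Rad9 were higher and Hus1-like and grp lower than with either Tip60wt or control at both durations, while tefu and mre11 were higher than with Tip60wt but near the control level. Between Tip60dn and Tip60wt at 48 h, 4 of the 10 genes were higher and 2 lower (adjusted p under 0.05, edgeR's quasi-likelihood test, Benjamini-Hochberg over all 10693 genes tested). In the same comparison 35.7% of all genes were called, 18.0% as higher and 17.7% as lower, the background against which 6 of 10 is to be read. At 78 h, 4 were higher and 3 lower, where 36.8% of all genes were called, 17.6% as higher and 19.2% as lower. Against control at 48 h, 2 were higher and 2 lower, with 39.0% of all genes called, 19.6% as higher and 19.4% as lower. Against control at 78 h, 2 were higher and 3 lower, with 44.2% called, 22.4% as higher and 21.7% as lower, so the share of checkpoint genes called against control was near the background. The libraries of Tip60dn and Tip60wt did not overlap for 7 of the 10 genes at 48 h and 6 at 78 h, beside 50.4% and 48.4% of all genes. Those of Tip60dn and control did not overlap for 5 and 8, beside 51.5% and 57.2%. The median absolute log2 fold change of the 10 genes between Tip60dn and Tip60wt was 0.26 at 48 h and 0.20 at 78 h, beside 0.22 and 0.20 over all genes tested. Comparisons with Tip60wt and with control share the Tip60dn libraries, so their values stand side by side and do not count as separate evidence.

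The checkpoint clamp genes went in opposite directions. Hus1-like encodes the Hus1 subunit of the clamp. At 48 h it stood at 8.51, 7.15 and 8.03 CPM in the control libraries, at 6.94, 7.98 and 8.12 in Tip60wt, and at 4.91, 4.85 and 4.67 in Tip60dn. All 3 Tip60dn libraries lay below all 6 others. At 78 h the values were 8.06, 7.33 and 7.16 CPM in controls, 8.08, 7.01 and 7.31 in Tip60wt, and 6.26, 4.74 and 4.49 in Tip60dn. The groups again did not overlap, although Tip60dn replicate 1 was nearer to the other groups than its partners. On the log2 scale Hus1-like fell by 0.65 (SE 0.0977, adjusted p = 0.00111 by edgeR) against Tip60wt at 48 h and by 0.51 (SE 0.127, adjusted p = 0.0123) at 78 h. Against control it fell by 0.69 (adjusted p = 0.000692, edgeR) and 0.52 (adjusted p = 0.0095, edgeR). These were the largest changes among the 10 genes in each of these comparisons. Between Tip60wt and control the fold changes were -0.04 and -0.01, with adjusted p = 0.888 and 0.981 by edgeR. The neighbour ctrip, whose exons overlap the gene, is far more abundant and also fell with Tip60dn against Tip60wt, by 0.29 on the log2 scale at 48 h (adjusted p = 0.0192, edgeR) and by 0.12 at 78 h (adjusted p = 0.022, edgeR); its part in the Hus1-like count was not tested.

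Rad9, which encodes a second subunit of the same clamp, rose where Hus1-like fell. Its 48 h levels were 15.9, 16.6 and 14.9 CPM in controls, 15.7, 16.8 and 15.6 in Tip60wt, and 20.6, 19.9 and 19.5 in Tip60dn. At 78 h they were 16.3, 15.9 and 16.9 CPM in controls, 16.8, 16.3 and 15.8 in Tip60wt, and 17.9, 18.3 and 18.7 in Tip60dn. Every Tip60dn library was above every other library of its duration, by a smaller gap at 78 h. The log2 fold change against Tip60wt was 0.34 (SE 0.0606, adjusted p = 0.00258, edgeR) at 48 h and 0.20 (SE 0.0499, adjusted p = 0.0138) at 78 h. Against control it was 0.37 (adjusted p = 0.00151, edgeR) and 0.19 (adjusted p = 0.0136, edgeR). Both 78 h calls were close to the threshold: the adjusted p by edgeR was 0.0512 without Tip60wt replicate 3, and, against control, 0.0549 and 0.0533 without control replicates 1 and 2 and 0.0524 with no filter on low counts. The opposite-strand neighbour Blos3 had log2 fold changes of 0.20 and 0.23 against Tip60wt, neither called (adjusted p = 0.128 and 0.0613, edgeR), and rose against control by 0.31 and 0.40 (adjusted p = 0.0287 and 0.00426, edgeR); whether its reads enter the Rad9 count was not tested. The third clamp subunit gene, Rad1, shares all its exon bases with Sws1 on the same strand, and no value is given for it.

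The opposite movement of Rad9 and Hus1-like can be read inside each library, where size factors cancel. In controls there were 1.86 to 2.33 Rad9 counts for each Hus1-like count at 48 h and 2.03 to 2.36 at 78 h. In Tip60wt the ratio was 1.92 to 2.26 and 2.08 to 2.33. In Tip60dn it was 4.1 to 4.19 at 48 h and 2.87 to 4.18 at 78 h, so all 6 Tip60dn libraries lay above all 12 others. This separation follows from the Rad9 and Hus1-like levels given above, as does the permutation p below. Neither is separate evidence. The mean log2 ratio was 0.99 higher in Tip60dn than in Tip60wt at 48 h and 0.72 higher at 78 h. With 3 libraries against 3 the two-sided exact permutation test cannot go below 0.1, and both comparisons gave p = 0.1 (0.157 adjusted over the 36 ratio comparisons made).

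**Figure D2:**
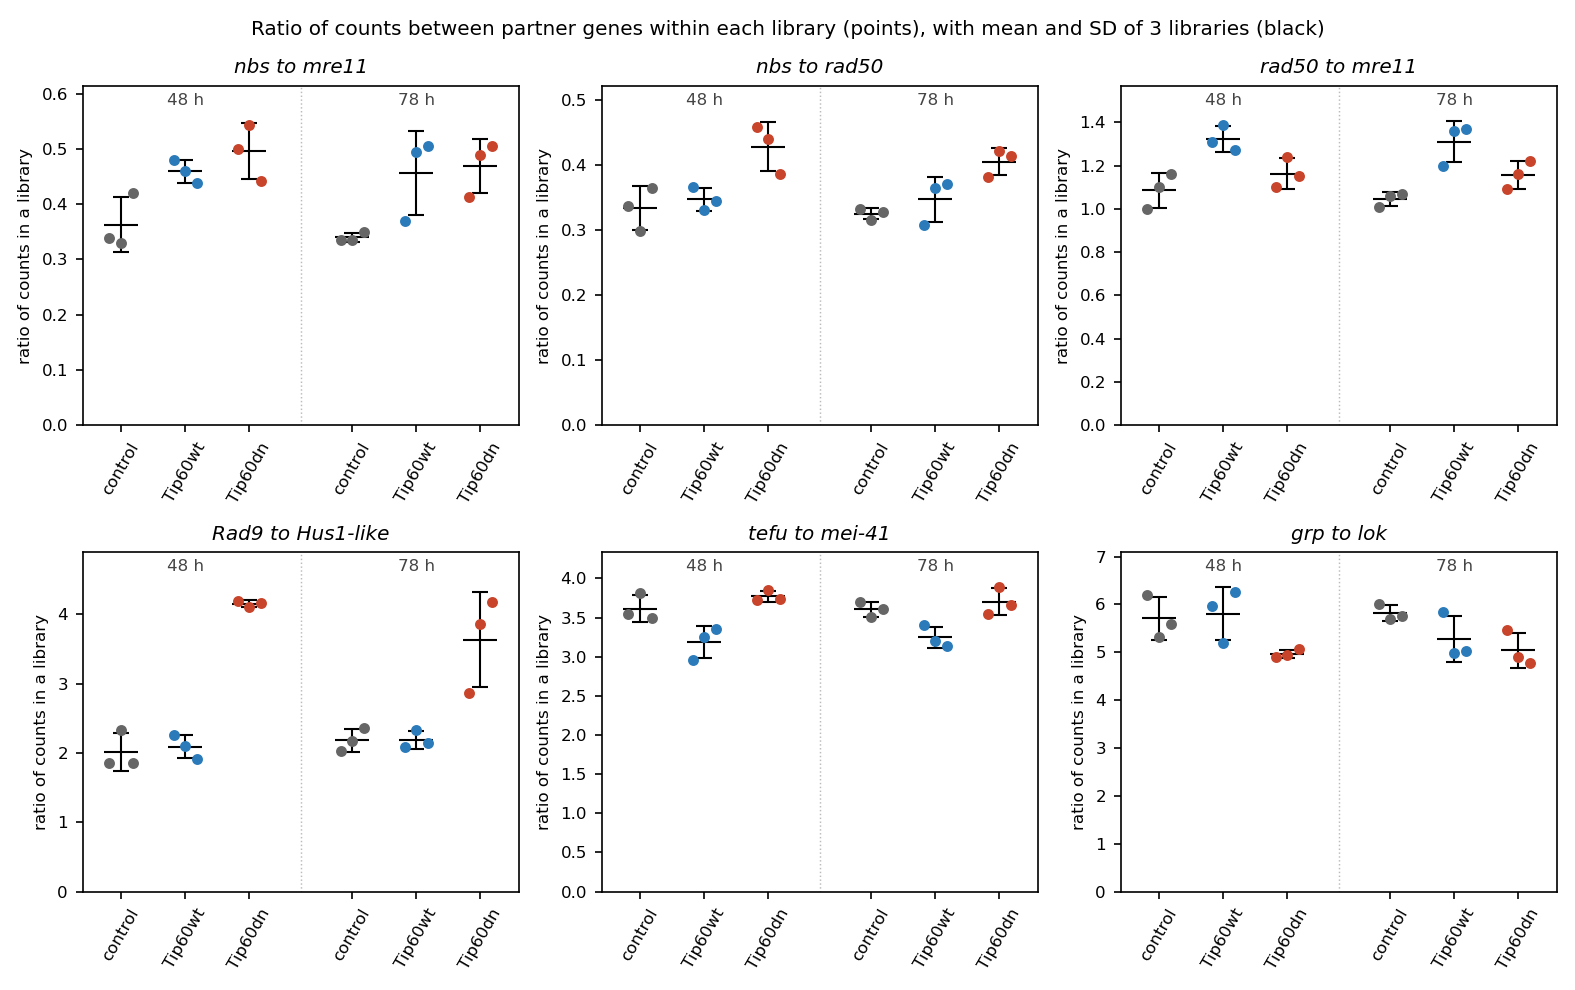
Ratio of counts between partner genes within each library (linear axes from 0) for 6 pairs, by genotype at 48 h and 78 h; points are libraries, black lines and bars the mean and SD of 3 libraries. The Rad9 to Hus1-like ratio is 2.87 to 4.19 in Tip60dn and no more than 2.36 elsewhere, and the rad50 to mre11 ratio is 1.2 to 1.39 in Tip60wt.

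The break sensor genes did not move as a unit. The complex contains the nuclease Mre11, the tethering ATPase Rad50 and Nbs, which binds the ATM kinase. The nbs mRNA rose with Tip60dn. At 48 h it stood at 28.3, 30.2 and 31.2 CPM in controls, 31.2, 30.7 and 29.5 in Tip60wt, and 42.7, 42.8 and 37.7 in Tip60dn. At 78 h it stood at 28.8, 27.7 and 29.0 CPM in controls, 28.5, 32.3 and 33.2 in Tip60wt, and 34.3, 38.0 and 37.4 in Tip60dn. Tip60dn was the highest group at both durations without overlap. The log2 fold change against Tip60wt was 0.45 (SE 0.0605, adjusted p = 0.000624, edgeR) at 48 h and 0.25 (SE 0.066, adjusted p = 0.0167) at 78 h, and against control 0.48 (adjusted p = 0.000361, edgeR) and 0.39 (adjusted p = 0.00161, edgeR). The 78 h call against Tip60wt did not hold without Tip60dn replicate 2 (adjusted p = 0.0636, edgeR) or replicate 3 (0.0621).

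The mre11 mRNA separated the other arm. At 48 h it was 83.6, 91.5 and 74.0 CPM in controls, 64.8, 66.8 and 67.3 in Tip60wt, and 85.2, 78.6 and 85.1 in Tip60dn. All 3 Tip60wt libraries lay below all others, and the Tip60dn libraries lay within the control range. At 78 h it was 85.7, 82.8 and 82.7 CPM in controls, 77.3, 65.3 and 65.5 in Tip60wt, and 82.8, 77.5 and 74.0 in Tip60dn. Here Tip60wt replicate 1 reached into the Tip60dn range, while all Tip60wt libraries stayed below the controls. Between Tip60dn and Tip60wt, mre11 rose by 0.34 on the log2 scale at 48 h (SE 0.0714, adjusted p = 0.00548, edgeR) and by 0.20 at 78 h (SE 0.066, adjusted p = 0.0426). Between Tip60dn and control the log2 fold changes were 0.02 and -0.07 (adjusted p = 0.813 and 0.398, edgeR), with a 95% interval of -0.14 to 0.18 at 48 h and -0.22 to 0.07 at 78 h. The 78 h call is the least stable of these: the adjusted p by edgeR lay between 0.0853 and 0.145 with only the compared groups fitted, with no low-count filter, or without any of Tip60wt replicates 2 and 3 and Tip60dn replicates 1 and 2.

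Between Tip60wt and control, mre11 was the only checkpoint gene called at 48 h, where 3.57% of all genes were called, 1.73% as higher and 1.84% as lower. It fell by 0.32 on the log2 scale (SE 0.0714, adjusted p = 0.0423, edgeR). Same-numbered Tip60wt and control libraries deviated together at 48 h, and with the replicate number as a block the change was -0.32 with adjusted p = 0.0726 (edgeR), no longer called. The call was also lost with only the compared groups fitted (adjusted p = 0.0951, edgeR) and without any Tip60wt library or control replicate 1 or 2 (0.0914 to 0.133). At 78 h none of the 10 genes was called by edgeR between Tip60wt and control, where 4.07% of all genes were called, 2.09% as higher and 1.97% as lower. Libraries of these arms did not overlap for 2 of the 10 genes at 48 h and 4 at 78 h, beside 21.7% and 26.2% of all genes. At 78 h, 2 genes, tefu and mre11, had an unadjusted p under 0.05, limma-voom called 0, and DESeq2 called those 2. The mre11 log2 fold change was -0.27 (SE 0.066, adjusted p = 0.0567, edgeR), and without Tip60wt replicate 1 it was -0.35 (adjusted p = 0.00293, edgeR).

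The rad50 mRNA varied least within the complex. It ranged from 84.0 to 100.9 CPM in controls at 48 h, 85.3 to 92.8 in Tip60wt and 93.4 to 97.7 in Tip60dn, and from 86.7 to 92.9 CPM over all 9 libraries at 78 h. The 48 h Tip60dn libraries lay above those of Tip60wt, and the log2 fold change of 0.15 (95% interval -0.01 to 0.32) was not called (adjusted p = 0.139, edgeR). It was called with only the compared groups fitted (adjusted p = 0.0495, edgeR). The control library with 100.9 CPM, replicate 2, overlapped the Tip60dn range; without it rad50 was higher by 0.21 in Tip60dn than in control (adjusted p = 0.0226, edgeR). At 78 h the log2 fold change against Tip60wt was 0.02 (95% interval -0.05 to 0.09).

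As ratios within libraries, the proportions of the 3 break sensor mRNAs did not overlap between some genotypes, depending on the pair of genes. None of these separations could pass the permutation test with 3 libraries a group. They follow from the nbs, rad50 and mre11 levels given above and are not separate evidence. There were 0.386 to 0.458 nbs counts for each rad50 count in Tip60dn at 48 h and 0.381 to 0.421 at 78 h, against 0.299 to 0.370 in all control and Tip60wt libraries. There were 1.27 to 1.39 rad50 counts for each mre11 count in Tip60wt at 48 h and 1.2 to 1.37 at 78 h, against 1.00 to 1.16 and 1.01 to 1.07 in controls. Control and Tip60wt did not overlap in the rad50 to mre11 ratio, nor Tip60dn and either other group in the nbs to rad50 ratio, at either duration. Each of these comparisons gave an exact permutation p = 0.1, the smallest the design allows (0.157 adjusted over the 36 ratio comparisons made). In the nbs to mre11 ratio, Tip60dn and Tip60wt overlapped at both durations (exact permutation p = 0.3 and 0.9). Neither overlapped control in that ratio (exact permutation p = 0.1 each). The Tip60dn libraries, at 1.1 to 1.24 and 1.09 to 1.22 rad50 counts per mre11 count, overlapped control at 48 h but not at 78 h, and Tip60wt at 78 h but not at 48 h.

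Of the apical kinase genes, tefu differed between arms and mei-41 did not pass any test. The tefu levels at 48 h were 219, 241 and 209 CPM in controls, 183, 204 and 197 in Tip60wt, and 221, 223 and 251 in Tip60dn. At 78 h they were 229, 220.2 and 220.2 CPM in controls, 212, 197 and 189 in Tip60wt, and 230.1, 229.4 and 229.5 in Tip60dn. Tip60wt was the lowest group each time without overlap. Between Tip60dn and Tip60wt, tefu rose by 0.28 on the log2 scale at 48 h (SE 0.0709, adjusted p = 0.0147, edgeR) and by 0.23 at 78 h (SE 0.0411, adjusted p = 0.00257). The 48 h call was lost without Tip60wt replicate 1 (adjusted p = 0.0652, edgeR) or Tip60dn replicate 3 (0.05). Between Tip60wt and control the log2 fold changes were -0.19 and -0.16, all Tip60wt libraries being lower, and neither was called (adjusted p = 0.2 and 0.0674, edgeR). DESeq2 called the 78 h difference (adjusted p = 0.00948), as did edgeR without Tip60wt replicate 1 (adjusted p = 0.00704). Tip60dn and control differed by 0.08 and 0.07 (adjusted p = 0.4 and 0.198, edgeR).

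The mei-41 mRNA had nearly the same mean in every group, from 60.98 ± 2.07 to 62.15 ± 3.01 CPM (SD, n = 3). Between Tip60dn and Tip60wt its log2 fold change was 0.03 at 48 h (95% interval -0.10 to 0.17) and 0.04 at 78 h (95% interval -0.04 to 0.13), so a change as large as that of nbs at either duration lies outside these intervals. The ratio of tefu to mei-41 counts within a library was 2.96 to 3.40 over the 6 Tip60wt libraries and 3.49 to 3.89 over the 12 others.

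Of the effector kinase genes, grp fell with Tip60dn at both durations. The 48 h levels were 463, 436 and 425 CPM in controls, 427, 402 and 461 in Tip60wt, and 357, 343 and 368 in Tip60dn. The 78 h levels were 455, 437 and 443 CPM in controls, 453, 399 and 402 in Tip60wt, and 358, 344 and 336 in Tip60dn. All 6 Tip60dn libraries were below all 12 others. Against Tip60wt, grp fell by 0.25 on the log2 scale at 48 h (SE 0.054, adjusted p = 0.00675, edgeR) and by 0.25 at 78 h (SE 0.0488, adjusted p = 0.004). Against control it fell by 0.28 (adjusted p = 0.00301, edgeR) and 0.34 (adjusted p = 0.000672, edgeR). The same-strand neighbour squ fell against Tip60wt by nearly the same amounts, 0.30 (adjusted p = 0.00869, edgeR) and 0.25 (adjusted p = 0.0142, edgeR); what the shared exon bases contribute was not tested.

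The lok mRNA moved less and was called only at 78 h. At 48 h it stood at 74.8, 81.8 and 75.8 CPM in controls, 71.5, 77.2 and 73.6 in Tip60wt, and 72.7, 69.4 and 72.6 in Tip60dn. At 78 h it stood at 75.8, 76.7 and 76.9 CPM in controls, 77.5, 80.04 and 79.97 in Tip60wt, and 65.6, 70.2 and 70.5 in Tip60dn. Tip60dn overlapped Tip60wt at 48 h, and was the lowest group without overlap at 78 h. The log2 fold change against Tip60wt was -0.03 at 48 h (adjusted p = 0.671, edgeR) and -0.18 at 78 h (SE 0.0405, adjusted p = 0.00791). The change in this difference from 48 h to 78 h, -0.14 (SE 0.0621), did not pass the test over all genes (adjusted p = 0.866, edgeR), so the durations are not shown to differ. Against control at 78 h lok fell by 0.13 (adjusted p = 0.0311, edgeR), a call that was lost without Tip60dn replicate 1 (0.0655) or without any one control library (0.0537 to 0.0782).

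The p53 mRNA was not called in any comparison. Group means ran from 14.67 ± 1.26 CPM in controls at 48 h to 16.39 ± 0.471 in Tip60dn at 78 h (SD, n = 3). At 78 h the libraries had 13.7, 15.5 and 15.0 CPM in controls, 14.7, 16.8 and 13.7 in Tip60wt, and 16.1, 16.1 and 16.9 in Tip60dn. Tip60dn lay above every control library and overlapped Tip60wt. The log2 fold change was 0.15 against Tip60wt (95% interval -0.03 to 0.33, adjusted p = 0.182, edgeR) and 0.18 against control (adjusted p = 0.0962). It passed the threshold against Tip60wt without replicate 2 of that group (adjusted p = 0.0488, edgeR), and against control with only the compared groups fitted (adjusted p = 0.0483, edgeR). The antisense RNA gene that covers part of p53, asRNA:CR46089, had a log2 fold change of 1.01 against Tip60wt at 48 h (adjusted p = 0.0267, edgeR) and 0.83 at 78 h (adjusted p = 0.0651, edgeR). Against control neither difference was called, at 0.33 (adjusted p = 0.411, edgeR) and 0.84 (adjusted p = 0.0548, edgeR). This gene is near the floor, with 25 to 101 counts per library, or 0.34 to 1.15 CPM.

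**Figure D3:**
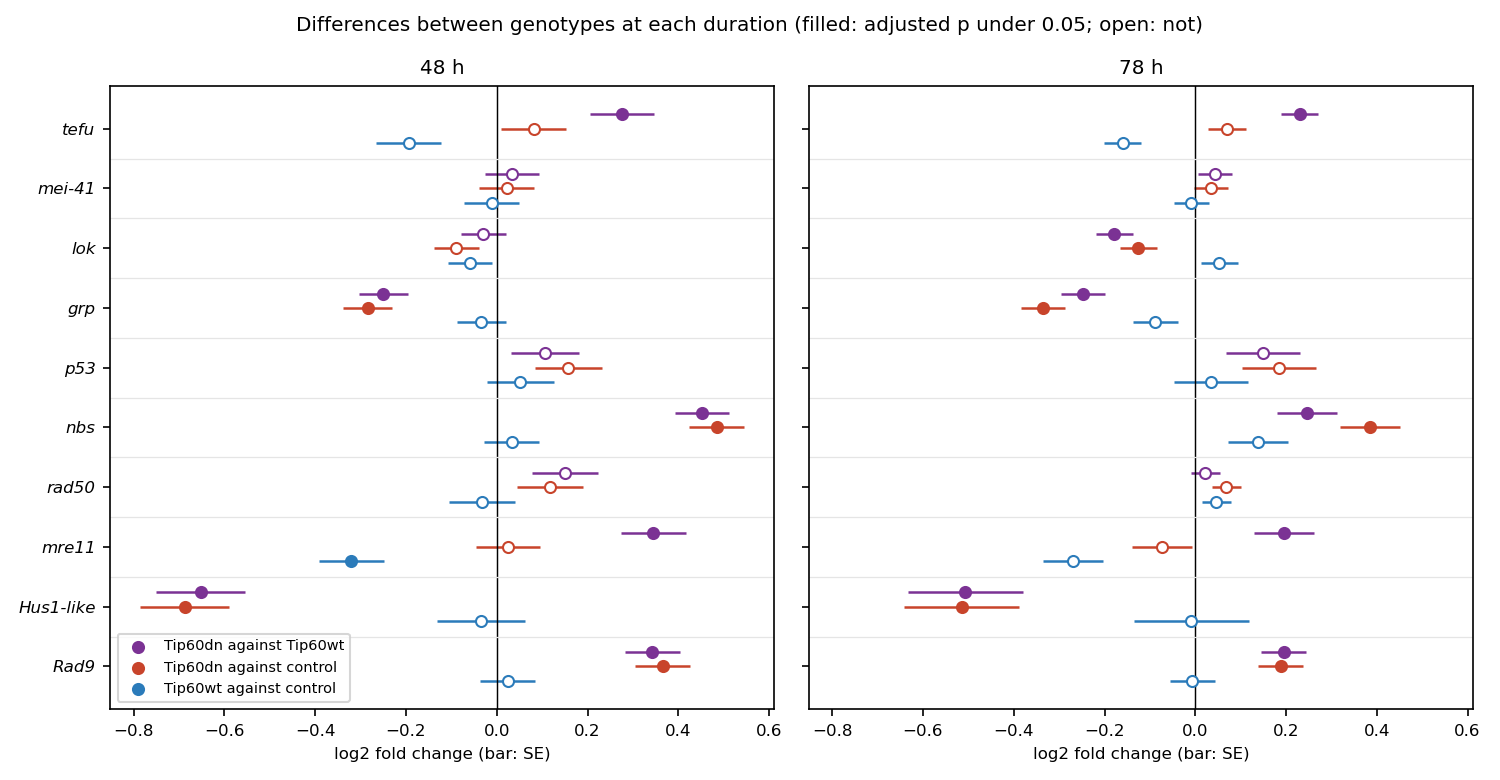
Log2 fold change of each checkpoint gene at 48 h (left) and 78 h (right) for Tip60dn against Tip60wt (purple), Tip60dn against control (red) and Tip60wt against control (blue); bars are SE from the edgeR fit of 9 libraries, and filled points passed an adjusted p of 0.05. For Hus1-like, grp, nbs and Rad9 both Tip60dn comparisons lie on the same side of 0, while for tefu and mre11 the Tip60dn comparison with control lies near 0 and that of Tip60wt with control lies below it.

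Duration effects on these genes within a genotype were not shown, and could not be told apart from any difference in handling between durations. Of the 10 genes, edgeR called 0 between 78 h and 48 h in control, Tip60wt or Tip60dn libraries, DESeq2 and limma-voom called 0, and an unadjusted p under 0.05 was found for 0, 0 and 2 of them. Over all 11173 genes tested, 0 were called in controls, 0 in Tip60wt and 0.134% in Tip60dn. The 2 genes with a low unadjusted p were nbs, with a log2 fold change of -0.16 in Tip60dn from 48 h to 78 h (adjusted p = 0.472, edgeR), and Rad9, with -0.12 (adjusted p = 0.545, edgeR). The differences between Tip60dn and Tip60wt, or between Tip60dn and control, were likewise not called as changing with duration for any of the 10 genes by edgeR, DESeq2 or limma-voom. An unadjusted p under 0.05 was found for 2 genes, lok and nbs, in the first of these and for 1, Rad9, in the second. For nbs the Tip60dn excess over Tip60wt was smaller at 78 h by 0.20 on the log2 scale (SE 0.0914, adjusted p = 0.869, edgeR).

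Among 6848 genes averaging 5 CPM or more, the closest in profile to Hus1-like over the 6 group means were CG14314, with a root mean square difference in centred log2 CPM of 0.0168, then Cen at 0.0229, and FBgn0025683 at 0.0279. Cen encodes the centrosome protein Centrocortin. It averaged 60.56 ± 1.60 CPM in controls, 57.98 ± 1.08 in Tip60wt and 39.51 ± 1.85 in Tip60dn at 48 h (SD, n = 3). CG14314 averaged 10.4 ± 0.352, 10.3 ± 0.503 and 6.57 ± 0.320 CPM in the same groups. Both were lowest in Tip60dn, which follows from choosing them for their likeness to Hus1-like over the same groups.

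The genes around the checkpoint are given as lists, each read against all genes: for Tip60dn against Tip60wt the median log2 fold change of all genes was 0.0109 at 48 h and 0.0145 at 78 h, and 35.7% and 36.8% of them were called. Of 20 tested checkpoint partners, such as adaptors, clamp loaders and histone variants, 2 rose and 6 fell at 48 h (median log2 fold change -0.07), and 1 rose and 7 fell at 78 h (median -0.11), so 8 of 20 at each duration, near the 35.7% and 36.8% called over all genes. The 6 and 7 that fell stand beside 17.7% and 19.2% of all genes called lower. The list includes Tip60 itself, which is 1 of the 2 that rose at 48 h. Against control, 1 rose and 7 fell at 48 h, and 2 rose and 10 fell at 78 h, Tip60 being among those that rose. Over all genes 19.4% and 21.7% were called lower against control. The mus304 gene, which encodes the ATR partner ATRIP, rose by 0.20 at 48 h (adjusted p = 0.00622, edgeR), from 20.8 ± 0.573 to 23.6 ± 0.640 CPM. At 78 h its log2 fold change was 0.10 and was not called (adjusted p = 0.139, edgeR), nor was it called against control at 48 h (0.10, adjusted p = 0.105, edgeR). The Domino ATPase gene dom, whose product shares the complex with Tip60, rose at 78 h by 0.26 (adjusted p = 0.000618, edgeR). The phosphatase subunit gene wrd fell by 0.22 and 0.23 (adjusted p = 0.00173 and 0.00126, edgeR), and the ubiquitin ligase gene Topors fell by 0.29 at 78 h (adjusted p = 0.00183, edgeR). Against control, wrd, Topors and dom at 78 h had the same direction and were called (log2 fold changes -0.31, -0.20 and 0.16, adjusted p = 0.000181, 0.00739 and 0.0048, edgeR).

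Of 14 cell cycle genes on which the checkpoint acts, 1 rose and 6 fell at 48 h (median log2 fold change -0.16), where 18.0% of all genes were called higher and 17.7% lower. At 78 h 1 rose and 9 fell (median -0.21), beside 17.6% and 19.2% of all genes. CycB, a mitotic cyclin, went from 380 ± 11 CPM in Tip60wt to 276 ± 15.9 in Tip60dn at 48 h and from 403 ± 24.1 to 297 ± 25.5 at 78 h, falling by 0.44 and 0.42 on the log2 scale (adjusted p = 0.000438 and 0.000735, edgeR). CycB3 fell by 0.50 at 48 h (adjusted p = 0.000955, edgeR) and CycA by 0.25 at 78 h (adjusted p = 0.000447, edgeR). The one that rose was trbl, which encodes Tribbles, a protein that promotes the loss of the mitotic phosphatase String: it went from 71.8 ± 0.960 to 112 ± 15.6 CPM at 48 h and from 69.1 ± 4.00 to 90.8 ± 4.04 at 78 h (adjusted p = 0.000896 and 0.000354, edgeR). Against control, 1 rose and 9 fell at 48 h, beside 19.6% and 19.4% of all genes, and 1 rose and 11 fell at 78 h, beside 22.4% and 21.7%.

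Of 17 tested genes listed here as p53 targets, 6 rose and 0 fell at 48 h (median log2 fold change 0.26), a share near the 35.7% called over all genes, of which 18.0% were higher. At 78 h 8 rose and 2 fell (median 0.21), beside 17.6% higher and 19.2% lower over all genes, and the other genes of the list were not called. Those not called at either duration include hid, skl and Corp (adjusted p = 0.287, 0.509 and 0.332 at 48 h and 0.852, 0.12 and 0.877 at 78 h, edgeR). Whether the listed genes depend on p53 in these discs was not tested. The TNF ligand gene egr went from 11.3 ± 0.761 CPM in Tip60wt to 20.0 ± 1.62 in Tip60dn at 48 h, and from 10.2 ± 1.55 to 19.8 ± 1.15 at 78 h (adjusted p = 0.000108 and 0.000205, edgeR). The cell death gene rpr rose by 0.62 at 48 h (adjusted p = 0.00051, edgeR) and the stress transcription factor gene Xrp1 by 0.81 (adjusted p = 0.000662, edgeR). Against control, egr rose by 1.13 and 1.19 (adjusted p = 2.18e-05 and 6.25e-05, edgeR), and at 48 h rpr by 0.56 and Xrp1 by 0.69 (adjusted p = 0.000721 and 0.00118, edgeR). At 78 h Traf4 rose by 0.55 against Tip60wt and 0.42 against control (adjusted p = 0.000168 and 0.000453, edgeR). The stress gene Gadd45 rose at 78 h by 1.31 against Tip60wt (adjusted p = 0.000192, edgeR) but by 0.67 against control (adjusted p = 0.00399, edgeR), and it fell by 0.64 in Tip60wt against control (adjusted p = 0.0359, edgeR). At 48 h its log2 fold change against control was 0.42 and was not called (adjusted p = 0.199, edgeR). Several of these genes also answer to pathways other than p53. The hemocyte sums given above were higher in the same Tip60dn libraries. Between Tip60dn and Tip60wt 11 of 14 hemocyte genes rose at 48 h and 11 of 13 at 78 h, beside 18.0% and 17.6% of all genes. Against control 10 of 14 hemocyte genes rose at 48 h and 7 of 13 at 78 h, beside 19.6% and 22.4%. In each of these comparisons 1 hemocyte gene fell. The part of these cells was not tested.

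Of 41 tested genes of recombination and strand repair, 8 rose and 3 fell at 48 h (median 0.02), and 3 rose and 7 fell at 78 h (median -0.07), lower shares than the 35.7% and 36.8% called over all genes between Tip60dn and Tip60wt. Against control, 3 rose and 13 fell at 48 h, beside 19.6% higher and 19.4% lower over all genes. At 78 h 4 rose and 13 fell against control, beside 22.4% and 21.7%. The photolyase genes phr6-4 and phr, whose products reverse ultraviolet lesions, rose by 0.63 (adjusted p = 8.54e-05, edgeR) and 0.38 (adjusted p = 0.00116, edgeR) against Tip60wt at 48 h. Neither was higher than in control: phr averaged 47.1 ± 2.28 CPM in controls, 22.2 ± 1.40 in Tip60wt and 28.4 ± 0.452 in Tip60dn, and fell by 0.70 in Tip60dn against control (adjusted p = 3.86e-05, edgeR). The phr6-4 mRNA averaged 26.4 ± 0.940, 17.2 ± 0.740 and 26.1 ± 1.38 CPM in the same groups, with a log2 fold change of 0.01 between Tip60dn and control (adjusted p = 0.919, edgeR). The mismatch repair gene Pms2 fell at 78 h by 0.34 against Tip60wt (adjusted p = 0.0011, edgeR) and by 0.45 against control (adjusted p = 0.000208, edgeR). The largest change on the list, Marf1 with 1.47 at 48 h and 1.77 at 78 h (adjusted p = 2.63e-05 and 2.45e-05, edgeR), is that of a regulator of oocyte mRNA decay and not of a repair enzyme. Against control it rose by 0.73 and 1.25 (adjusted p = 0.00067 and 9.74e-05, edgeR), and in Tip60wt it fell against control by 0.74 and 0.53 (adjusted p = 0.00452 and 0.0494, edgeR).

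**Figure D4:**
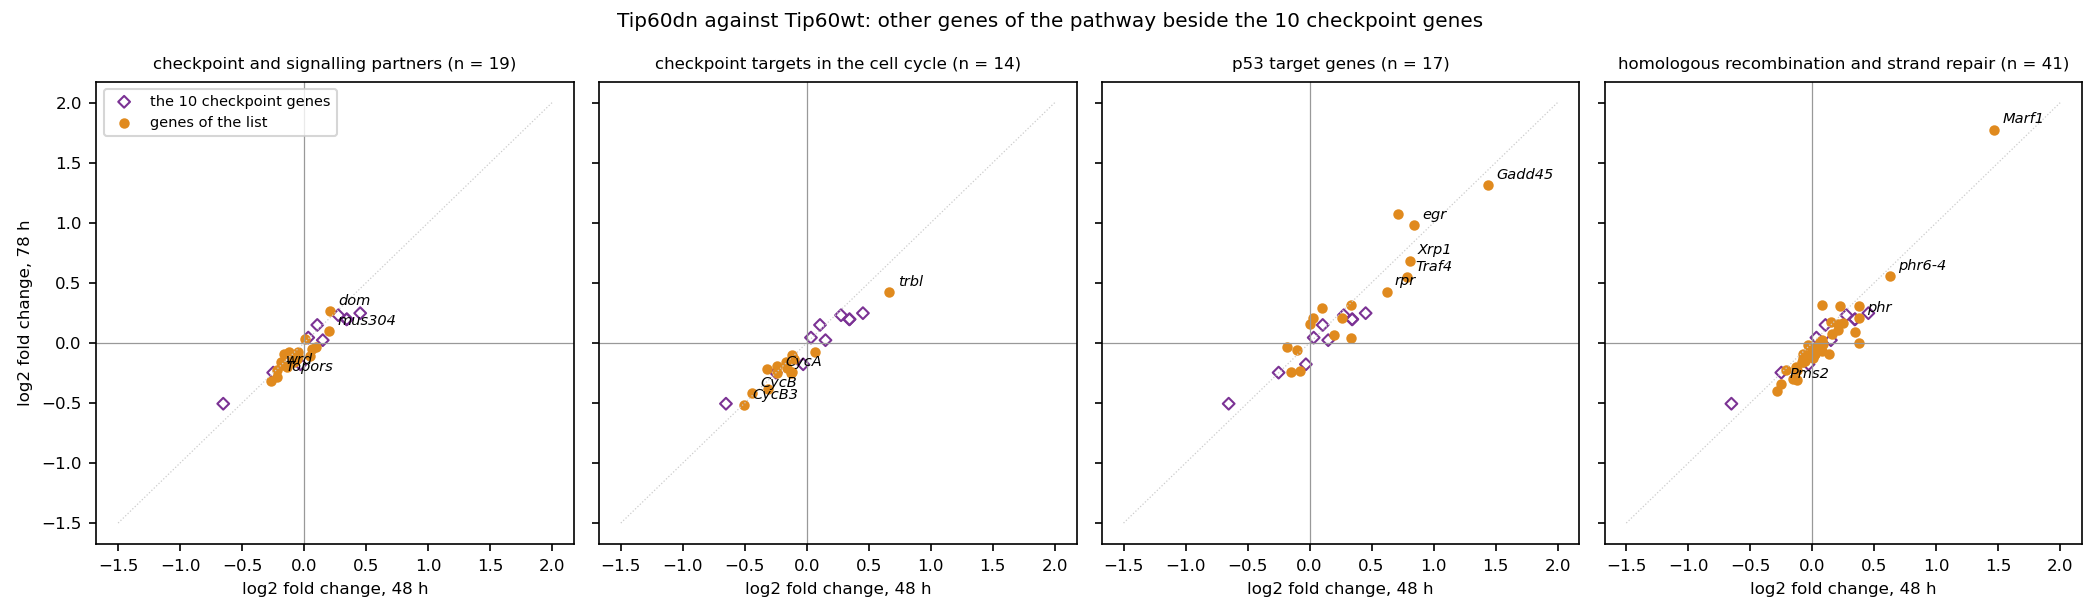
Log2 fold change of Tip60dn against Tip60wt at 48 h (horizontal) and 78 h (vertical) for the genes of 4 pathway lists (orange), with the 10 checkpoint genes (open diamonds) repeated in each panel; Tip60 is left out of the first panel, and the dotted line marks equal change. In the cell cycle panel CycB lies at -0.44 and -0.42 and trbl at 0.67 and 0.42; in the p53 panel egr lies at 0.85 and 0.98.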

How the data were processed

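The authors deposited tables of raw read counts per FlyBase gene, one for each duration, with 3 libraries for each of control, Tip60wt and Tip60dn. Per the labels, libraries were polyA-selected and directional. The submitters' processing notes name FastQC, featureCounts, limma, edgeR 3.13.4 and the build BDGP6; the aligner is not given in the sources used here. Of 17559 IDs, 17253 had a symbol. Counts were tested with edgeR 4.0.16 in R 4.3.3 (TMM, filterByExpr with a minimum count of 10, quasi-likelihood F test, two-sided, adjusted p under 0.05 by Benjamini-Hochberg over all genes tested), in 1 fit of 9 libraries per duration, or of all 18 for durations and for changes in a difference between durations. Libraries were grouped by label. The checkpoint genes and all lists were chosen with earlier results of these data known. All 10 checkpoint genes are named, and from each list up to 3 called genes per comparison of Tip60dn with Tip60wt by smallest adjusted p. Of the neighbours sharing exons, ctrip, squ, Blos3 and asRNA:CR46089 are described, and others, such as Gmppb beside Hus1-like and CG14174 beside nbs, are not. Rad1 was added. Ratios between partner genes were compared with exact permutation tests. Same-numbered libraries deviated together, with each correlation above 0.1, for Tip60dn and Tip60wt at 78 h (0.26, 0.39 and 0.38) and for Tip60wt and control at 48 h (0.31, 0.11 and 0.33), as read from the data, not the labels. Alternatives were DESeq2 1.42.0, limma-voom (limma 3.58.1), other size factors, no filter, a replicate block, other sets of libraries and leaving out each library. The tests were tried on simulated counts first. Replicates differed by more than counting noise. At 65277725 to 105716567 counts per library, depth limits these genes little.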

Additional observations from a re-analysis of the deposited data

How the results depend on the processing

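Of 1500 values of the 10 checkpoint genes under the alternatives, 1378 kept direction and side of the threshold, 25 lost a call, 11 gained one and 86 changed sign with no call either way; 0 called values reversed. Between Tip60dn and the other arms, the counts of checkpoint genes and of all genes stayed within 1.5 times under every alternative that kept all libraries of the groups compared. Between Tip60wt and control at 48 h, the 1 checkpoint gene called became 0 with the replicate block and 0 with only the compared groups, and DESeq2 called 718 genes rather than 382. At 78 h the 0 checkpoint genes became 2 with DESeq2, 1 with the replicate block and 1 with all 18 libraries in 1 fit, and DESeq2 called 961 genes rather than 431. The block changed no other call of a checkpoint gene. Between durations DESeq2 called 24 genes in controls and 6 in Tip60wt, where edgeR and limma-voom called 0 and 568 and 455 genes had an unadjusted p under 0.05 by edgeR. In Tip60dn the 15 genes became 9 with relative log expression factors, 105 with DESeq2, 24 with the replicate block and 2 with only the compared groups. For the change of a difference with duration, DESeq2 called 12 genes against Tip60wt and 31 against control, and the block 4 against control, where edgeR without it and limma-voom called 0 and 623 and 777 genes had an unadjusted p under 0.05 by edgeR. The causes were not tested.

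Leaving out 1 library, the checkpoint genes called ranged from 5 to 6 and 5 to 7 for Tip60dn against Tip60wt at 48 h and 78 h, from 4 to 5 and 3 to 5 against control, from 0 to 1 and 0 to 3 for Tip60wt against control, and 0 between durations. The 3 against control at 78 h were left without control replicate 1 or 2. All genes called ranged from 2813 to 3456, 2949 to 3917, 3233 to 3876, 3610 to 4714, 191 to 525 and 203 to 981 in the same order. The lowest of these for Tip60wt against control were without control replicate 2 at 48 h and replicate 1 at 78 h, and the highest at 78 h was without Tip60wt replicate 1, where tefu, mre11 and grp were called. Between durations they ranged from 0 to 10 in controls, 0 to 0 in Tip60wt and 0 to 35 in Tip60dn, where 48 h replicates 2 and 3 gave the extremes, and for changes of a difference from 0 to 8 against Tip60wt and 0 to 7 against control. With 3 libraries a group, small differences, such as those of rad50 and p53, crossed the threshold under some settings.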
